A study of Mus musculus with 161 samples.

Results

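Contacts within chrX:98831148-99151148 (mm9), the stretch of the X chromosome that ends at boundary 1 of the region studied, were followed by chromosome-conformation capture carbon copy (5C) across 91 libraries, made from E14Tg2a, a male mouse embryonic stem cell line with a single X chromosome, and its subclones. In 5C, chromatin is cut with HindIII and ligated in place, and ligated fragments are counted with a forward (FOR) primer on one fragment and a reverse (REV) primer on the other. A pair of fragments was taken as a member where both midpoints lay in the segment and were at least 40 kb apart. This gave 958 members, from 34 FOR and 37 REV fragments, of 244944 primer pairs in all and of 239962 pairs at least 40 kb apart. All libraries had a value for 853 of the 958 members. The members were chosen by position, in a segment that ends at boundary 1. The authors had placed that boundary where few contacts cross in earlier 5C data of untreated cells. They had left out boundaries that remained after CTCF was degraded.

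The transgene lines derive from CTCF-AID cells, in which endogenous CTCF carries an auxin-inducible degron (AID) and Tir1 lets auxin trigger its degradation. These cells also carry Rtta3G and a TetO-CTCF cDNA that doxycycline (dox) induces. They were treated for 4 days with 500 µM auxin and 1 µg/ml dox, and each line is 1 clone. The lines compared express the full-length cDNA (14 libraries), the full-length cDNA at low expression (2 libraries), or a cDNA with a change. Deletions from the amino terminus are written ΔN(1-265), in 2 clones, ΔN(1-89), ΔN(90-178), ΔN(179-265), ΔN(264-288), ΔN(1-31), in 2 clones, and ΔN(13-33), in 2 clones, and those from the carboxy terminus, as in the labels, Del_576-614, Del_577-736 and Del_615-736. The labels give ΔN(1-89) as Del_1-88 and ΔN(90-178) as 89-178, and 1 library of Del_576-614 carries the title of Del_615-736 and was grouped by its cell line. Substitutions are H288R, Y226A/F228A, Y226A/F228A together with Δ(13-33), a mutant deficient in parylation, the attachment of poly-ADP-ribose, and 2 mutants deficient in sumoylation, whose labels also name a carboxy-terminal deletion. In the N/C swap the termini of the protein are exchanged. "No dox" stands for the full-length line after 4 days of auxin alone (2 libraries). The remaining 22 libraries are of untreated cells: WT parental cells, the CTCF-AID parental line, and 2 clones in each of these backgrounds with residues 13-33 deleted from endogenous CTCF. How much of each transgene product the cells made is not analysed here. From these contacts alone, the amount of CTCF and its altered sequence cannot be told apart. The paper measured expression of the transgenes by flow cytometry. It reports slightly higher expression of ΔN(1-265), and lower expression of the deletion labelled Del_576-614, than of full-length.

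CTCF is a DNA-binding protein with a row of zinc fingers. It stops cohesin, the ring complex that extrudes loops of chromatin, and it does so best when its amino terminus faces the arriving complex. Fragments between neighbouring CTCF-bound boundaries therefore contact each other more often than fragments on either side of a boundary, and such a domain is called a topologically associating domain. Y226 and F228 of the amino terminus are the residues that touch cohesin, and H288R disrupts the first zinc finger.

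The segment begins just before Ogt (98835399-98879690, plus strand), which encodes the enzyme that adds N-acetylglucosamine to nuclear and cytoplasmic proteins. Farther along lie Cxcr3 (98926874-98929608, minus strand), a chemokine receptor gene, and 8030474K03Rik (98989995-98993981, plus strand). The last stretch is the first part of Nhsl2 (99044724-99287394, plus strand), which runs on across boundary 1. FLAG-CTCF peaks had been called in the full-length line after 2 days of auxin and dox and kept where found in both replicates. The segment holds 11 of these peaks, each 200 bases long. Peak 1 (98867378-98867577) is in an intron of Ogt and peak 5 (98986984-98987183) in an intron of Gm4779. Peak 8 (99019843-99020042) is in an exon of the pseudogene H3f3a-ps1. Peak 9 (99045579-99045778) lies 954 bases from the start of Nhsl2, and peak 10 (99137768-99137967) and peak 11 (99149660-99149859) are in introns of that gene, 13.3 and 1.4 kb before the end of the segment. Peaks 2 (98893711-98893910), 3 (98930433-98930632), 4, 6 and 7 are between genes, peak 3 at 924 bases from the start of Cxcr3. Fragments with a primer contain 9 of the 11.

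A short form of the CTCF motif, which reads C, 3 bases of any kind, AG, 2 bases of any kind and GGC, was searched on both strands of each peak because its strand gives the orientation of the bound protein. It occurred in 7 of the 11 peaks, in 65.2% of the 1128 peaks on chromosome X, and in 5.38% of 808156 windows of 200 bases on that chromosome outside peaks. The 7 matches are shown 5′ to 3′ on the strand that carries the motif, read from the mm9 genome, with the motif in capitals and 20 bases on each side.
Peak 1, chrX:98867420-98867470, plus strand: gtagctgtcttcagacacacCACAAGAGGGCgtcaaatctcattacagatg
Peak 2, chrX:98893779-98893829, minus strand: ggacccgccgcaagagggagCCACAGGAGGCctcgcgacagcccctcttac
Peak 5, chrX:98987064-98987114, minus strand: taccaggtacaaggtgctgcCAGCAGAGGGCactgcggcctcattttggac
Peak 6, chrX:99001017-99001067, plus strand: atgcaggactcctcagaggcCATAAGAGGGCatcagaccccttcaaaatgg
Peak 8, chrX:99019923-99019973, minus strand: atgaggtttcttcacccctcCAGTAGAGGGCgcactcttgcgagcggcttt
Peak 10, chrX:99137848-99137898, minus strand: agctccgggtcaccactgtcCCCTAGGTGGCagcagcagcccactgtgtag
Peak 11, chrX:99149730-99149780, plus strand: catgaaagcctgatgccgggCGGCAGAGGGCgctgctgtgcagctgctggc
The matches of peaks 1, 6 and 11 point along the chromosome toward boundary 1 and those of peaks 2, 5, 8 and 10 point away from it.

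For each library the corrected contacts of the members were summed and divided by their expected sum, where the expected value of a pair is the mean of all pairs of that library in the same 20-kb class of distance. The log2 of this ratio is called log2 observed/expected (O/E) below, and a value of 0 means that the segment is as rich in contacts as the whole 5C region at these distances. Corrected values of single pairs are given as corrected contacts, scaled to a sum of 1000000 in each library. The members held between 1.39% and 1.92% of the corrected signal. In the 82 libraries with a complete count matrix, 37730 to 264856 counts fell on members, with a median of 112 counts per member in the middle library, and 1.95% of member values were 0. Differences between lines were tested over libraries with two-sided exact permutation tests, or with 100000 resamples where both groups held at least 10 libraries, and adjusted by the Benjamini-Hochberg method within each family. A difference was called where the adjusted p was below 0.05. All comparisons with full-length share its 14 libraries. The tests measure the spread of libraries and not that between clones, and most changes are present in 1 clone only.

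In the full-length line the segment was richer in contacts than the region as a whole at the same distances. The log2 O/E of its 14 libraries ran from 0.621 through a median of 0.657 to 0.735, with a mean of 0.668 ± 0.0365 (SD, n = 14). This corresponds to an O/E of 1.59 ± 0.0404 (SD, n = 14), and to 19.8 ± 1.52 corrected contacts for a mean member (SD, n = 14). Of the 853 members, 647 (75.9%) lay above their expected value. The domain between boundaries 1 and 2 had a log2 O/E of 0.313 ± 0.0331 (SD, n = 14). The domain between boundaries 2 and 3 had 0.262 ± 0.0226 (SD, n = 14), so the segment had the highest value of these 3 stretches in this line. The segment lies at the start of the region with primers, so no measured partners lie before it, unlike for both domains. Iterative correction equalizes the total of each fragment. How much this position adds to the enrichment of the segment was not tested.

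Enrichment in full-length libraries depended on distance. It was 0.632 ± 0.0261 at 40 to 60 kb, 0.867 ± 0.0692 at 100 to 120 kb and 0.258 ± 0.104 at 200 to 220 kb (log2 O/E, SD, n = 14). It also varied along the segment. Fragments just downstream of Ogt and in the part of Nhsl2 near the boundary were among those richest in contacts. FOR20, the first measured fragment past the end of Ogt, averaged 1.198 ± 0.137, the neighbouring REV21 with peak 2 averaged 1.18 ± 0.117, and FOR85 in Nhsl2 averaged 1.197 over their members. Fragments inside Ogt held the lowest values, with −0.503 ± 0.268 for REV16 and −0.217 ± 0.212 for REV14, which contains peak 1 (SD, n = 14 each). Of the other fragments with a peak, REV40 (peak 5) reached 1.03 ± 0.182 and FOR87 (peak 10) 0.987 ± 0.123, whereas REV88 (peak 11), at the end of the segment, had 0.097 ± 0.105. Each member counts toward 2 fragments, so these values are not independent of one another.

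The same contrast appeared between genes. Contacts of Ogt with Nhsl2 (169 members) were at −0.086 ± 0.119, that is, about as frequent as in the whole region at their distance (log2 O/E, SD, n = 14). Contacts of Cxcr3 with Nhsl2 (26 members) were at 0.919 ± 0.0976 and those of Ogt with Cxcr3 (14 members) at 0.698 ± 0.105. Contacts inside Nhsl2 (69 members) were at 0.615 ± 0.0588.

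Single members differed widely, and their median coefficient of variation over the 14 full-length libraries was 31.5%. The member highest above its expected value was FOR39-REV67, between a fragment before Gm4779 and one in Nhsl2, 83.9 kb apart. It ranged from 100.2 through a median of 135.2 to 501.9 corrected contacts in full-length libraries, whose mean was 181. The pair REV21-FOR87 joined the fragments with peaks 2 and 10 over 249.3 kb. In full-length libraries it had 15.97 to 35.06 corrected contacts with a median of 24.07, and a log2 O/E of 1.97 on a scale that adds 0.1 to the ratio. Without dox it had 13.68 and 16.85 corrected contacts, and the ΔN(1-265) libraries ranged from 4.599 through 18.40 to 28.30. The Y226A/F228A libraries, at 20.59 and 27.71, lay inside the full-length range. The lowest member by mean log2 O/E, REV16-FOR60, between Ogt and Nhsl2 (177.7 kb), ranged from 0 to 3.813 corrected contacts in the full-length line.

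**Figure D1:**
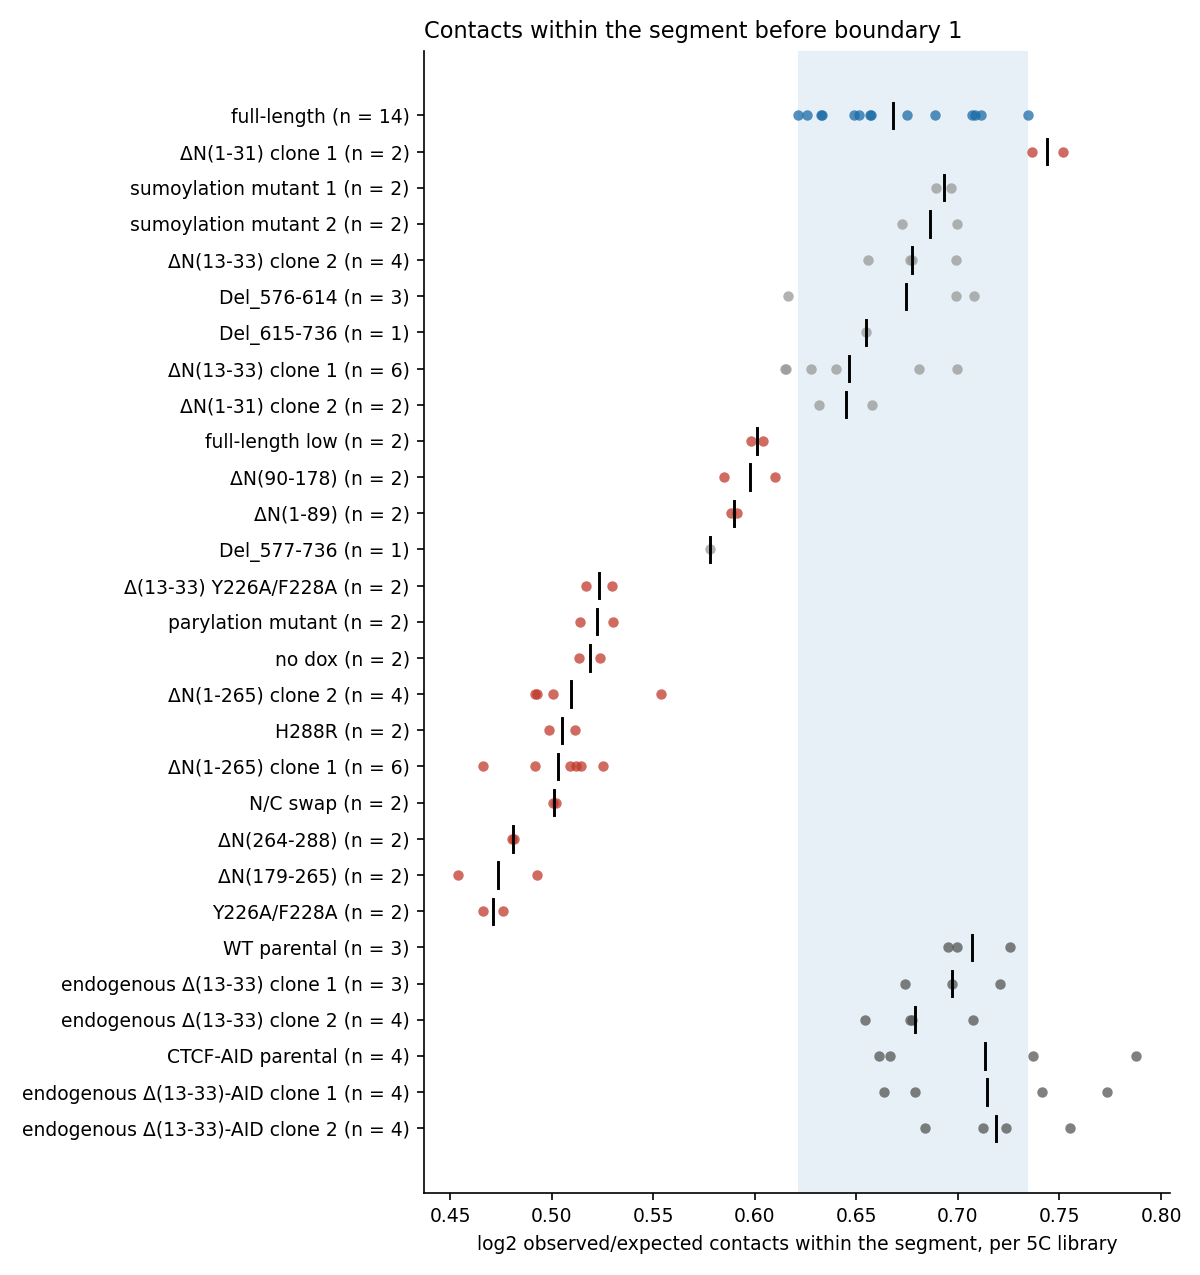
Log2 observed/expected contacts within the segment (x axis) for each 5C library (points), by line (y axis), with the mean of the line as a black tick. The shaded band is the range of the 14 full-length libraries, 0.621 to 0.735; full-length libraries are blue, called transgene lines red, transgene lines that were not called or have 1 library grey, and lines with endogenous CTCF dark grey. The 13 lines called lower lie wholly to the left of the band and ΔN(1-31) clone 1 to its right.

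Of 20 transgene lines or conditions with at least 2 libraries, 14 were called different from full-length in the segment, 13 of them lower and 1 higher. Without dox, contacts within the segment were fewer. The no dox libraries had a log2 O/E of 0.524 and 0.513, below all 14 full-length libraries, a difference of −0.149 (adjusted p = 0.0139, exact permutation test). With the full-length cDNA at low expression the libraries had 0.598 and 0.604, also below the full-length range, and the difference was −0.067 (adjusted p = 0.0476, exact permutation test). This call was lost in 10 of the 16 cases with 1 library left out (adjusted p up to 0.0824).

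Deletion of residues 1 to 265 gave levels below full-length in both clones. The 6 libraries of clone 1 ran from 0.4661 through a median of 0.510 to 0.525 and the 4 of clone 2 had 0.491, 0.492, 0.501 and 0.554, without overlap with full-length. The differences were −0.165 (adjusted p = 0.000516) and −0.158 (adjusted p = 0.00327, exact permutation tests). Both clones pooled differed from no dox by −0.013 (adjusted p = 0.47, exact permutation test) with overlapping libraries. This difference was called with no expected value (−0.0735, adjusted p = 0.0379) and with the median member (−0.129, adjusted p = 0.0253, exact permutation tests). The pooled clones lay below low full-length expression by 0.0955 on the log2 scale, where the libraries did not overlap (p = 0.0152, adjusted p = 0.0379, exact permutation test).

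Among the smaller deletions at the amino terminus, the lowest values came from ΔN(179-265) and ΔN(264-288). The paper describes the latter as overlapping the first zinc finger. ΔN(179-265), which removes Y226 and F228, had 0.4926 and 0.4538, a difference of −0.195, and ΔN(264-288) had 0.480 and 0.481, a difference of −0.187. ΔN(1-89) had 0.588 and 0.591, a difference of −0.078, and ΔN(90-178) had 0.610 and 0.585, a difference of −0.071. The adjusted p was 0.0385 for ΔN(90-178) and 0.0139 for the other 3 (exact permutation tests). The difference between these deletions was not tested.

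Lines with substitutions and the N/C swap reached the same low range. Y226A/F228A libraries, in which residues that touch cohesin are replaced, had 0.4759 and 0.4662, a difference of −0.197 or an O/E 0.872 times that of full-length. H288R had 0.511 and 0.499, a difference of −0.163. The parylation mutant, whose substitutions the paper places in the stretch that also holds Y226 and F228, had 0.530 and 0.514, a difference of −0.146. The N/C swap, in which all parts of the protein are present in another order, had 0.5004 and 0.5021, a difference of −0.167. Each had an adjusted p of 0.0139 (exact permutation tests, p = 0.00833, the smallest that 2 libraries against 14 allow). Y226A/F228A did not differ beyond the spread of libraries from ΔN(1-265), at −0.035 (adjusted p = 0.177, exact permutation test), but with no expected value this difference was called, at −0.0684 (adjusted p = 0.0379, exact permutation test).

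Deletion of residues 13 to 33 was not called on the log2 O/E. ΔN(13-33) libraries ran from 0.615 through a median of 0.634 to 0.6997 in the 6 of clone 1 and from 0.656 to 0.699 in the 4 of clone 2, overlapped full-length, and differed from full-length by −0.022 and +0.009 (adjusted p = 0.316 and 0.671, exact permutation tests). With no expected value, clone 1 was called at −0.141 (adjusted p = 0.0373) and clone 2 was not, at −0.0966 (adjusted p = 0.306, exact permutation tests). Both clones lay above ΔN(1-265) by 0.153 on the log2 scale, without overlap (p = 2e-05, adjusted p = 0.0001, permutation test, n = 10 and 10). When Δ(13-33) was combined with Y226A/F228A, the libraries had 0.517 and 0.530, 0.145 below full-length on the log2 scale (adjusted p = 0.0139, exact permutation test). These values are higher than those of Y226A/F228A alone by 0.052, without overlap, but 2 libraries against 2 cannot give a p below 0.333 in an exact permutation test. The clones of ΔN(1-31) fell on different sides. Clone 1 had 0.736 and 0.752, above every full-length library (+0.076, adjusted p = 0.0139), and clone 2 had 0.658 and 0.632 (−0.023, adjusted p = 0.48, exact permutation tests).

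None of the lines whose label names a carboxy-terminal deletion, and that could be tested, was called. The paper describes a substitution that removes the amino-terminal sumoylation site, so the sumoylation mutants are not carboxy-terminal changes alone. Del_576-614 libraries had 0.616, 0.699 and 0.708 (+0.006, adjusted p = 0.813). Sumoylation mutant 1 had 0.689 and 0.697 (+0.025, adjusted p = 0.479) and sumoylation mutant 2 had 0.6996 and 0.6725 (+0.018, adjusted p = 0.593, exact permutation tests). The single libraries of Del_577-736 and Del_615-736 had 0.578 and 0.655, against 0.626 for full-length in their run, and were not tested. Del_577-736 lay below the range of the full-length libraries. The paper reports that this line expressed very little of its protein and that its insulation was affected.

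Library numbers fall into 6 runs, and full-length libraries from them differed in level, so differences were also taken within runs. For ΔN(1-265) clone 1 these were −0.183, −0.171 and −0.114 in 3 runs, for no dox −0.181, for low full-length expression −0.0987, for Y226A/F228A −0.156 and for ΔN(1-31) clone 1 +0.094. For ΔN(1-89) and ΔN(90-178) they were −0.0552 and −0.0478. With runs as blocks, 1 of the 20 lines was called, in a design where most lines are compared with few libraries of their own run. With each pair's corrected value and no expected value, no dox (−0.132, adjusted p = 0.306) and low expression (−0.108, adjusted p = 0.403, exact permutation tests) were not called, and ΔN(1-31) clone 1 was near full-length (+0.0054, adjusted p = 0.991, exact permutation test).

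Lines with endogenous CTCF had levels within or near the full-length range, and none of 4 comparisons among them was called by exact permutation tests, nor was any unadjusted p under 0.05. WT parental cells had 0.6952, 0.6996 and 0.7257. The 7 libraries with residues 13-33 deleted from untagged CTCF ran from 0.654 through a median of 0.677 to 0.720, a difference of −0.020 (adjusted p = 0.467, exact permutation test). CTCF-AID parental cells had 0.661, 0.667, 0.737 and 0.788, with the lower pair in one run of library numbers and the higher pair in another. Their 8 counterparts with the deletion ran from 0.663 through a median of 0.718 to 0.773, a difference of +0.003 (adjusted p = 0.914, exact permutation test). The effect of the deletion did not differ between the backgrounds beyond the spread of libraries (interaction −0.0235, p = 0.464, permutation test). Full-length transgene libraries lay 0.045 below CTCF-AID parental cells on the log2 scale, with overlap (p = 0.0761, adjusted p = 0.305, exact permutation test).

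Contacts that leave the segment across boundary 1 were compared with those inside it. For these, 1 fragment lay in the segment and the other within a stretch of the same length after the boundary (2552 pairs). In full-length libraries the log2 O/E was 0.225 ± 0.0497 across the boundary against 0.668 within, so contacts within exceeded those across by 0.443 ± 0.0685 (log2, SD, n = 14), with libraries between 0.303 and 0.535. Of 24 comparisons of this difference, 12 were called, and 1 with runs as blocks. Boundary 1 had been chosen as one lost when CTCF is degraded, so a smaller difference without dox was partly set by that choice. Without dox the difference was 0.0957 and 0.105 in the 2 libraries, with contacts across at 0.428 and 0.408, above the full-length range. It was lower than in full-length by 0.342 without dox, by 0.373 in Y226A/F228A, by 0.340 in the N/C swap, by 0.336 in ΔN(1-265) clone 1 and by 0.315 in clone 2. The adjusted p was 0.000619 and 0.00392 for the clones of ΔN(1-265) and 0.0182 for the rest (exact permutation tests). Against full-length libraries of the same run, the differences were −0.388 without dox, −0.252 in Y226A/F228A and −0.385 in the N/C swap. For ΔN(1-265) they were −0.350, −0.356 and −0.227 in clone 1 and −0.344 and −0.332 in clone 2. Y226A/F228A thus fell further than no dox over all runs and less within runs, and the order of these lines was not tested. H288R (lower by 0.188) and ΔN(264-288) (lower by 0.225), which had segment levels like those of ΔN(1-265), had contacts across the boundary inside the full-length range, at 0.264 and 0.236 and at 0.268 and 0.257. The full-length libraries of their own run had 0.236 and 0.201, below both libraries of ΔN(264-288) and overlapping those of H288R. Low full-length expression (lower by 0.104, adjusted p = 0.108), ΔN(1-89) (by 0.0628, adjusted p = 0.329) and ΔN(90-178) (by 0.0798, adjusted p = 0.2, exact permutation tests) were called in the segment and not by this measure. ΔN(1-31) clone 1 again lay above full-length, by 0.170 (adjusted p = 0.0182), and full-length lay below CTCF-AID parental cells by 0.115 (adjusted p = 0.0196, exact permutation tests). The parental libraries come from 2 of the 6 runs, and the last difference was not called with runs as blocks (−0.0884, adjusted p = 0.19, exact permutation test) or without parental replicate 3 or 4 (adjusted p up to 0.0941).

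**Figure D2:**
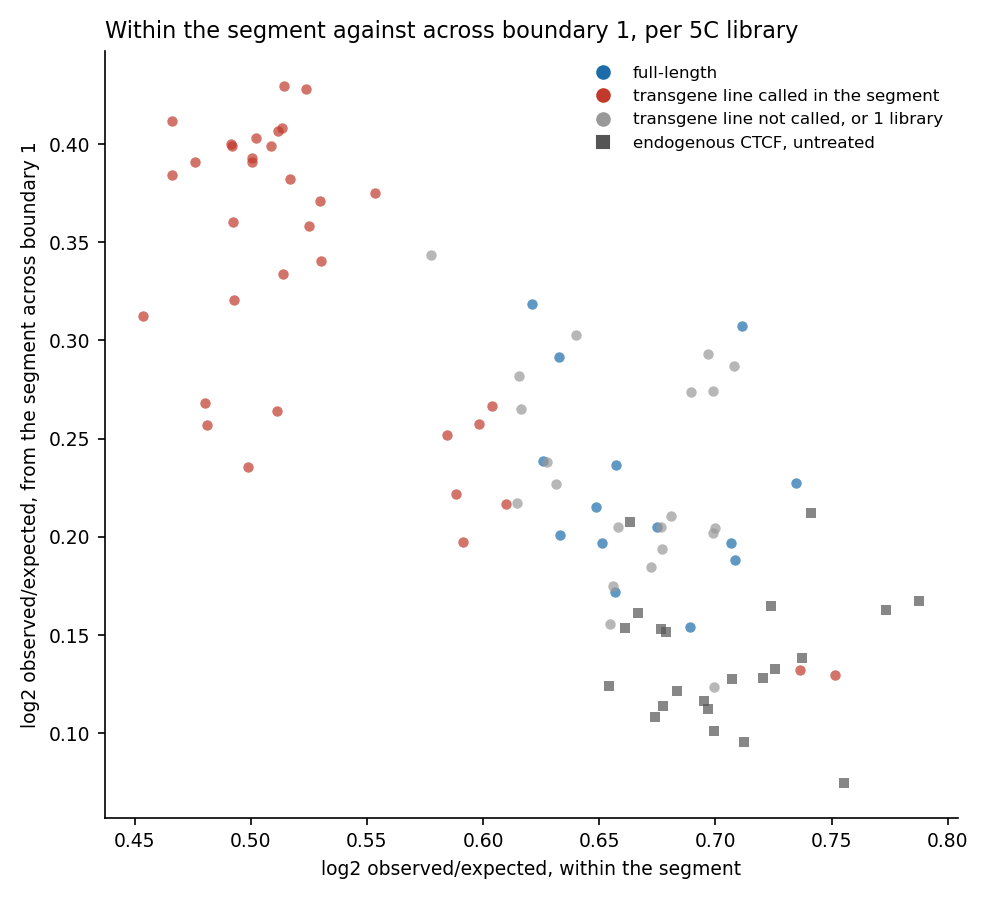
Log2 observed/expected of contacts within the segment (x axis) against that of contacts from the segment across boundary 1 (y axis), 1 point per 5C library. Full-length libraries (blue) average 0.668 and 0.225; called transgene lines (red) lie mostly at upper left, apart from both libraries of ΔN(1-31) clone 1 at lower right, and lines with endogenous CTCF (squares) lie at lower right.

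Differences were also taken in 3 classes of distance. At 40 to 80 kb, no dox differed from full-length by −0.137, ΔN(1-265) by −0.110 and Y226A/F228A by −0.121. At 80 to 160 kb the differences were −0.184, −0.200 and −0.230, and from 160 kb up they were −0.0978, −0.222 and −0.315. For ΔN(1-265) the adjusted p was 4e-05 in each class (permutation tests, n = 10 and 14), and for Y226A/F228A it was 0.0111 in each (exact permutation tests). No dox was called in the first 2 classes (adjusted p = 0.0111) and not from 160 kb up (adjusted p = 0.1, exact permutation tests), although whether its loss at these distances is smaller than that of the mutants was not tested. In that class full-length libraries averaged 0.344 ± 0.0683 (SD, n = 14), no dox 0.247, ΔN(1-265) 0.123, with libraries between 0.095 and 0.148, and the Y226A/F228A libraries were at −0.0133 and 0.0719, near the level of the whole region. Low full-length expression was called at 80 to 160 kb alone (−0.123, adjusted p = 0.0111, exact permutation test).

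**Figure D3:**
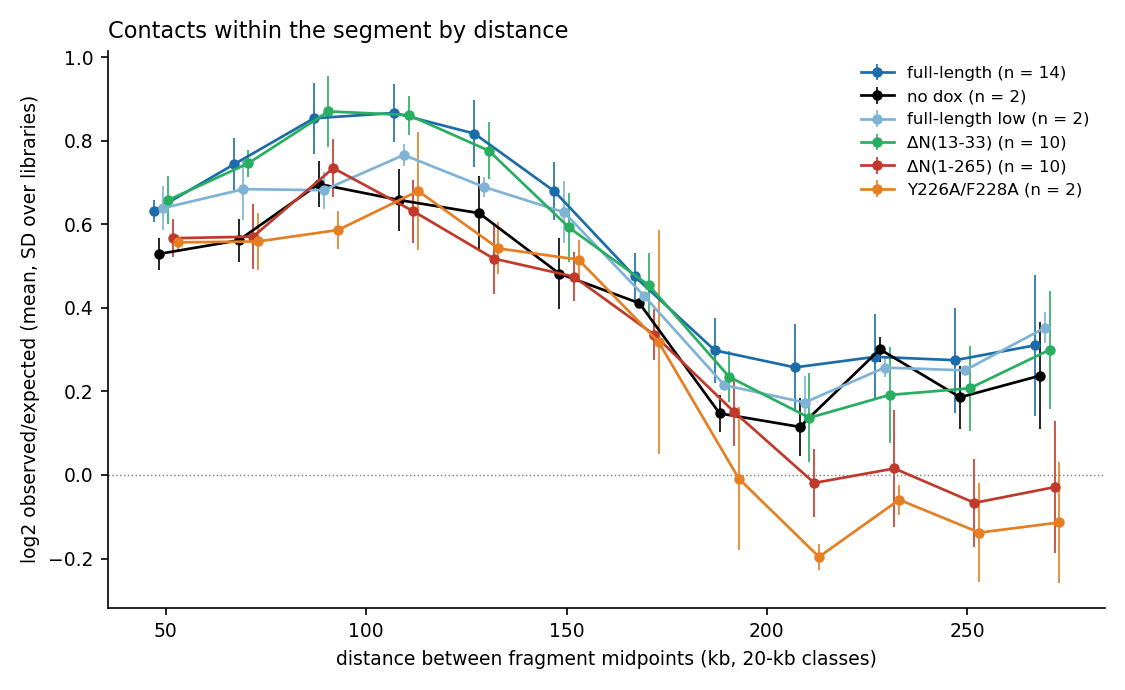
Log2 observed/expected of members (y axis, mean and SD over libraries) in 20-kb classes of distance between fragment midpoints (x axis, kb), for full-length, no dox, low full-length expression, ΔN(13-33), ΔN(1-265) and Y226A/F228A, in classes with at least 20 measured members. Full-length peaks at 0.867 in the class of 100 to 120 kb, ΔN(13-33) follows it, and ΔN(1-265) and Y226A/F228A lie near or below 0 from 200 kb up.

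The loss was compared with that in both domains that follow. Relative to the domain between boundaries 1 and 2, the segment fell by a further 0.133 in ΔN(1-265) (adjusted p = 8e-05, permutation test), by 0.0924 in Y226A/F228A (adjusted p = 0.0222) and by 0.0833 without dox (adjusted p = 0.0333, exact permutation tests). Relative to the domain between boundaries 2 and 3 it fell by 0.0753 in ΔN(1-265) (adjusted p = 0.00192, permutation test). The differences for Y226A/F228A (−0.0851, adjusted p = 0.0556) and no dox (−0.0868, adjusted p = 0.0533, exact permutation tests) were of like size and not called. Low full-length expression was called against neither domain, at −0.0461 and −0.0268 (adjusted p = 0.105 and 0.525, exact permutation tests). From raw counts none of 6 such comparisons was called.

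Along the segment most fragments were lower. Of 67 measured fragments, the mean over their members was lower than in full-length for 66 in ΔN(1-265), 64 in Y226A/F228A, 63 without dox, 57 at low full-length expression and 40 in ΔN(13-33). In ΔN(1-265) the lowest difference was −0.487 at REV16, inside Ogt. In Y226A/F228A the lowest difference was −0.445 at REV48, a fragment between genes, and without dox it was −0.334 at FOR9 in Ogt. REV88, which holds peak 11 at the end of the segment, differed by +0.118 without dox, −0.0016 in ΔN(1-265) and +0.0379 in Y226A/F228A, with overlap between the libraries. REV21, which holds peak 2, differed by −0.136, −0.226 and −0.250, and FOR87, which holds peak 10, by −0.242, −0.203 and −0.215, in the same order.

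**Figure D4:**
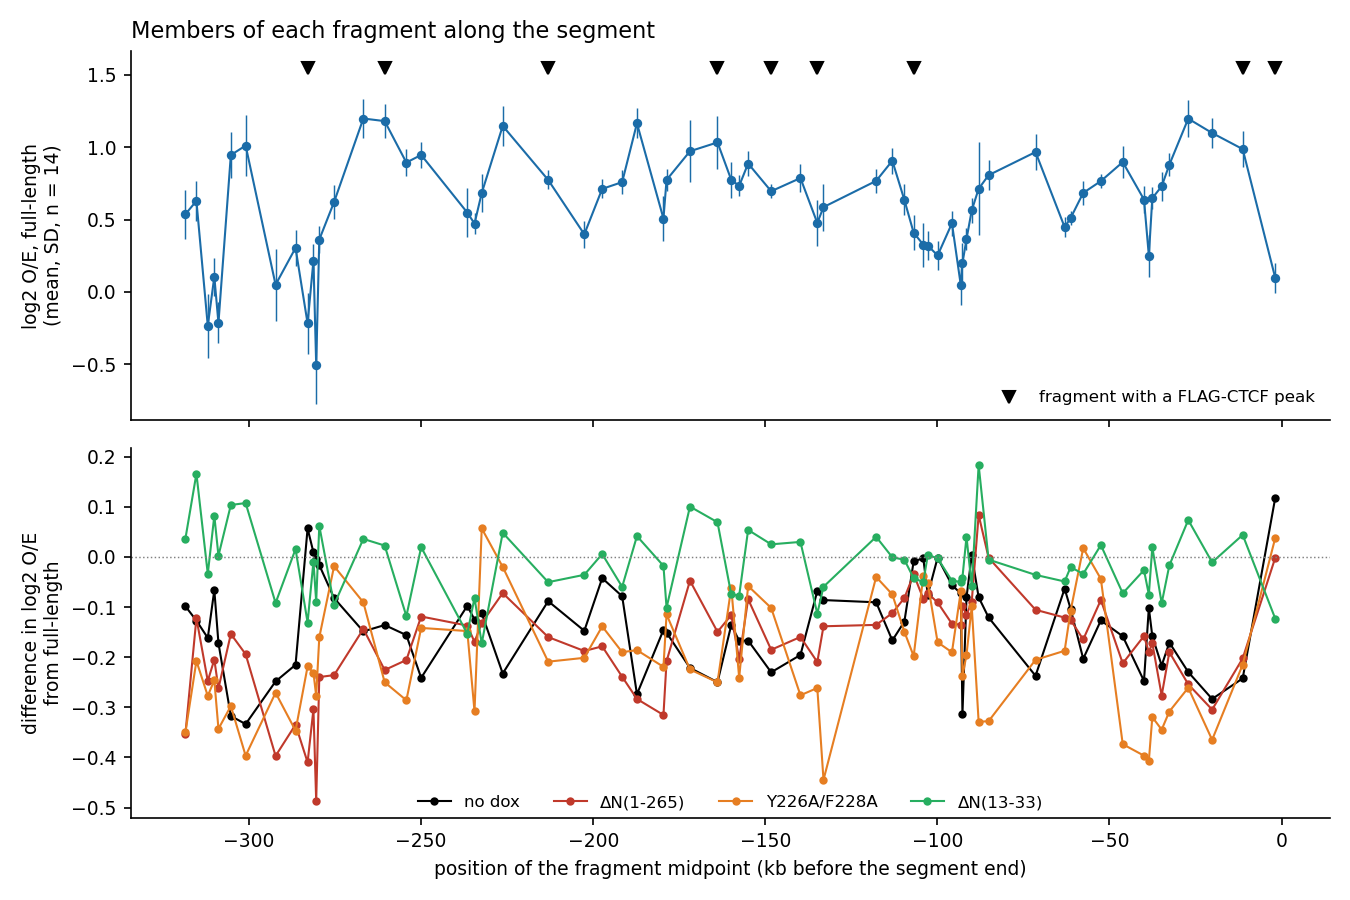
Upper panel, log2 observed/expected of the members of each fragment in full-length (mean and SD, n = 14) against the position of the fragment's midpoint in kb before the segment end, with triangles over the 9 fragments that hold a FLAG-CTCF peak. Lower panel, difference from full-length (log2) for no dox, ΔN(1-265), Y226A/F228A and ΔN(13-33); the first 3 lie below 0 for 63, 66 and 64 of 67 fragments, and ΔN(13-33) for 40.

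To see which parts of the segment moved apart, it was cut into 3 stretches of equal length, numbered from the Ogt end, and full-length levels and differences were taken for each combination without a test. Contacts between stretches 1 and 3 had a full-length level of 0.370 and differed by −0.217 in ΔN(1-265) and −0.290 in Y226A/F228A, against −0.112 without dox. Contacts between stretches 1 and 2 (full-length level 0.7997) differed by −0.250 in ΔN(1-265), −0.176 in Y226A/F228A and −0.138 without dox. Contacts between stretches 2 and 3 (full-length level 0.7806) differed by −0.147, −0.275 and −0.211 in the same order. Inside stretch 1 (43 members) they were −0.0857, −0.128 and −0.2355, so that the no dox libraries had their largest difference there. Inside stretch 2 (38 members) the differences were smaller, with −0.028, +0.018 and −0.037, and inside stretch 3 (61 members) they were −0.0759, −0.0839 and −0.0570.

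Among genes, contacts of Ogt with Nhsl2 were at −0.086 ± 0.119 in full-length (n = 14), −0.358 ± 0.045 in ΔN(1-265) (SD, n = 10) and a mean of −0.404 in Y226A/F228A, against −0.121 without dox and −0.160 in ΔN(13-33) (log2 O/E, not tested). Contacts of Cxcr3 with Nhsl2 differed most without dox, by −0.307 against −0.130 in ΔN(1-265) and −0.228 in Y226A/F228A. Contacts of Ogt with 8030474K03Rik (13 members) differed by −0.402 in ΔN(1-265), −0.466 in Y226A/F228A with Δ(13-33), −0.362 in Y226A/F228A, −0.301 in the parylation mutant and −0.191 without dox.

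**Figure D5:**
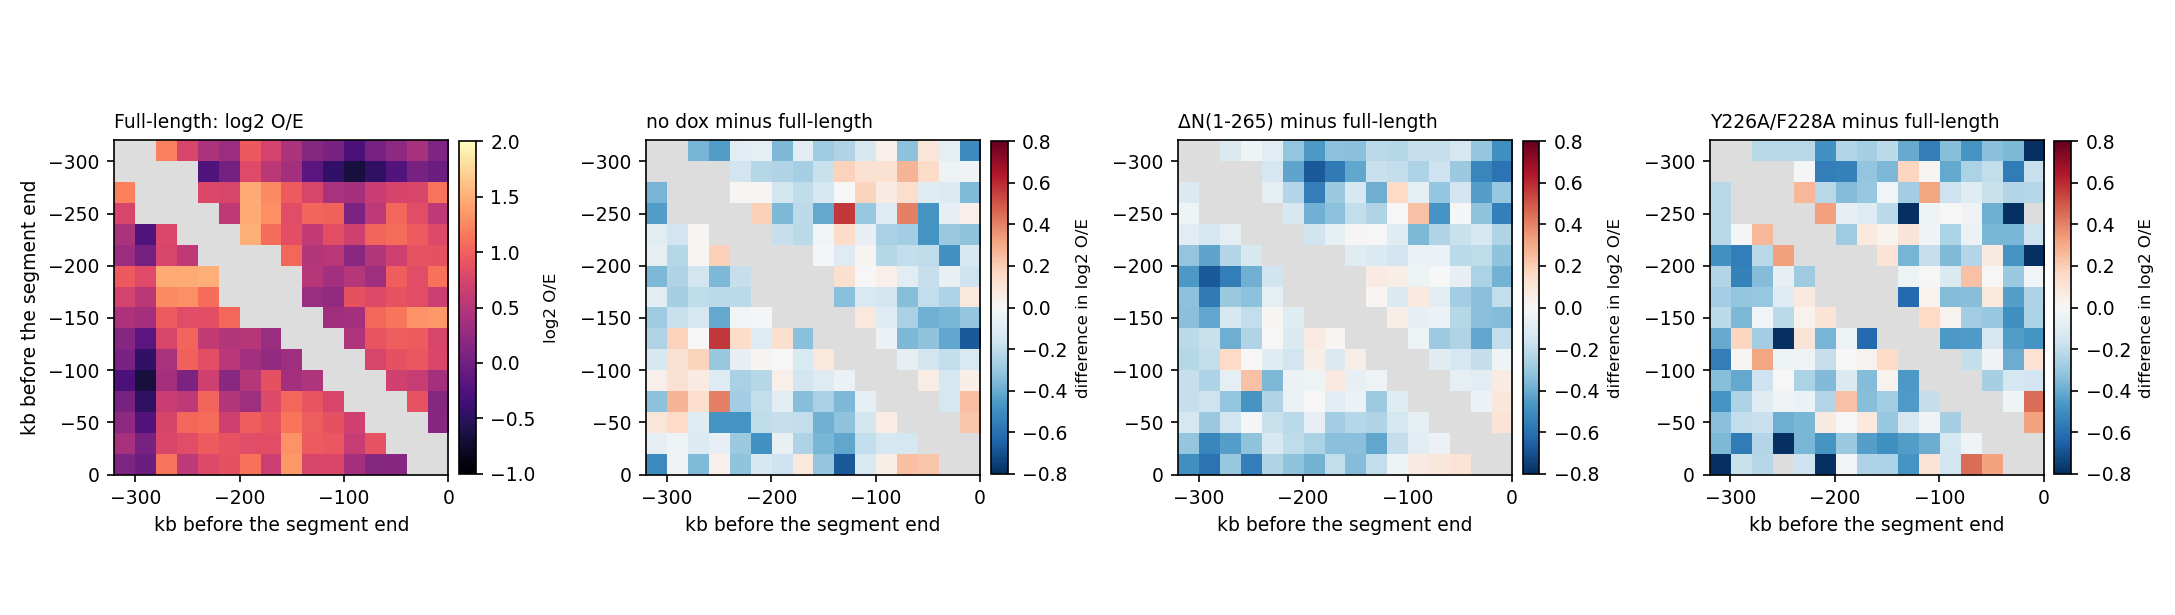
Maps of the segment in 20-kb bins, both axes in kb before the segment end, with bin pairs that hold no member in grey. The first map is log2 observed/expected in full-length and the other 3 are differences (log2) of no dox, ΔN(1-265) and Y226A/F228A from it. Blue, lower than full-length, prevails in the difference maps. In the corner that joins Ogt (left) with the part of Nhsl2 before the boundary, blue prevails for ΔN(1-265) and Y226A/F228A. The no dox map holds bins of both signs there.

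Members were also split by the peaks in their fragments. There are 17 members with a peak in both fragments and 725 with none, the others having one in 1 fragment, and the full-length log2 O/E was 0.545 ± 0.139 with both, 0.657 ± 0.0347 with none and 0.709 ± 0.0495 with 1 (SD, n = 14). The difference between members with peaks at both ends and members with none was −0.112 ± 0.141 in full-length (SD, n = 14), and the lines departed from it by +0.140 without dox (adjusted p = 0.575), −0.030 in ΔN(1-265) and +0.064 in Y226A/F228A (adjusted p = 0.671 each). None of these 3 was called by exact or resampled permutation tests and no unadjusted p was under 0.05. Over the 17 members the median log2 O/E, with 0.1 added to the ratio, was 0.579 in full-length, 0.707 without dox, 0.33 in ΔN(1-265) and 0.264 in Y226A/F228A.

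Each primer pair was also tested by itself with limma on log2(corrected contacts + 1), over 84635 pairs of the region with a mean of at least 1, which include all 853 measured members. Fold changes on this scale are understated for pairs with low values. The pairs of the region also reach larger distances than the members, and no share at matched distance was taken. In ΔN(1-265), 33 members were called lower, 3.87% of the members, where 0.707% of all pairs tested were called lower. In Y226A/F228A, 11 members (1.29%) were called lower against 0.282% of all pairs, and without dox 1 member (0.117%) against 0.0343% of all pairs. No member was called higher in these lines. The median log2 difference of the members was −0.247 in ΔN(1-265), where that of all pairs was −0.085, and −0.288 in Y226A/F228A, where it was −0.062. The median of the no dox members was −0.060 while that of all pairs was +0.083. ΔN(1-265) and Y226A/F228A share the full-length libraries as reference.

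No member was called at low full-length expression, in ΔN(13-33), in CTCF-AID parental cells against full-length, or in either endogenous deletion against its parental line (limma). At an unadjusted p under 0.05 these comparisons held 25, 102, 55, 58 (untagged) and 86 (AID) members, and neither edgeR nor DESeq2 on counts called any. These are 2.93%, 11.96%, 6.45%, 6.80% and 10.1% of the members, where 1.53%, 6.09%, 6.56%, 5.89% and 7.56% of all pairs passed the same threshold. Of all pairs, 0.00236% were called at low expression, 0.00118% in ΔN(13-33), 0.00591% in CTCF-AID parental cells, 0.00118% for the untagged deletion and 0.0% for the AID-tagged one.

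The 33 members called in ΔN(1-265) were 69 to 295.1 kb apart, with a median of 122.3 kb against 127.9 kb for all measured members. Of these, 18 (54.5%) had a fragment in Ogt, 15 (45.5%) had one in Nhsl2, and 9 (27.3%) had a peak in at least 1 fragment, against 38.9%, 67.6% and 25.6% of all measured members. Those with the largest falls join fragments of Ogt to REV35 (98960675-98967055), which lies between Cxcr3 and Gm4779. FOR13-REV35 (99.2 kb) ranged from 28.04 through 38.85 to 50.55 corrected contacts in full-length libraries and from 12.55 through 20.04 to 24.21 in ΔN(1-265), without overlap (log2 difference −1.02 ± 0.105 SE, adjusted p = 1.76e-10, limma). FOR15-REV35 (94 kb) went from a median of 33.42 to 17.52 corrected contacts (−0.92 ± 0.147 SE, adjusted p = 6.49e-05) and FOR9-REV35 (113.7 kb) from 43.39 to 24.21 (−0.88 ± 0.229 SE, adjusted p = 0.0388, limma), both with overlap between the groups. Without clone 2 replicate 1, the fall of FOR9-REV35 was not called (adjusted p = 0.267), and 20 members were called in place of 33 (limma).

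The 11 members called in Y226A/F228A were 40.4 to 238.7 kb apart, and 8 (72.7%) had a fragment in Nhsl2, as did 67.6% of all measured members. Several rest on few counts. REV40-FOR68 (peak 5 to Nhsl2, 78.8 kb) had 1.752 to 81.52 corrected contacts in full-length libraries, from 1 to 64 counts, and 1.476 and 0 corrected contacts, from 2 and 0 counts, in Y226A/F228A (adjusted p = 0.0383, limma). REV27-FOR81 (195.9 kb) was listed at 0 in both libraries, against 1.201 to 9.680 corrected contacts in full-length (adjusted p = 0.0361, limma). REV23-FOR87 (238.7 kb, peak 10) had 0 and 9.210 corrected contacts, from 0 and 97 counts, against 9.909 to 22.37 in full-length (adjusted p = 0.0345, limma), and without the library at 0 the log2 difference was −0.58 (adjusted p = 0.773, limma). With either Y226A/F228A library left out, the falls of REV40-FOR68 and REV27-FOR81 were not called (adjusted p = 0.117 to 0.589 and 0.248 to 0.375, limma). The single call without dox, FOR7-REV23 (Ogt to a fragment between genes, 55.3 kb), had 34.39 and 31.63 corrected contacts against 47.32 to 79.18 in full-length (−0.887 ± 0.188 SE, adjusted p = 0.0441, limma), and was not called with 1 of its libraries left out (adjusted p = 0.435 and 0.898, limma). The number of called members moved with the tool: in ΔN(1-265), edgeR on counts called 3, DESeq2 10, and limma with the run of library numbers as a term 47 lower and 1 higher. The shares of members called lower were 0.352%, 1.17% and 5.51%, against 0.178%, 0.463% and 0.763% of all pairs. In Y226A/F228A the same 3 fits called 3, 21 and 2 members lower. Their shares were 0.352%, 2.46% and 0.234%, against 0.252%, 2.98% and 0.0792% of all pairs, so that with DESeq2 the share was lower among members than among all pairs.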

How the data were processed

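The 91 5C libraries were analysed from 2 kinds of matrix. The authors mapped reads to primer pairs (mm9) and deposited the raw count of each pair. They also deposited a corrected signal, obtained by iterative correction at the level of restriction fragments on unbinned matrices with cooltools. In 78 libraries this signal sums to 1000000 over a symmetric matrix and in 13 it stays near the raw total, so the FOR by REV block was rescaled to 1000000 in every library. Primers with only zeros were taken as no data. Iterative correction equalizes the total of each fragment, so values are relative and not numbers of molecules. The count matrices of 9 libraries were available here in part and were left out of every step on counts. The other 82 held 3631870 to 23419010 counts. Intervals are over libraries, which the study describes as biological replicates and the labels number, without saying what was separate between them. The authors deposited FLAG-CTCF peaks as coordinates with no score.

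Groups follow cell line and treatment in the labels. Segment values are sums over members against sums of expected values. Permutation tests are of the difference in means (seed 11). Single pairs were tested with limma 3.58.1 in R 4.3.3 (trend, pseudocount 1, mean of at least 1, all libraries in 1 fit, 1 coefficient per group), with edgeR 4.0.16 and DESeq2 1.42.0 on counts as alternatives, after tests on simulated data. Members named are the 5 highest and 5 lowest by mean log2 O/E in full-length, the 3 largest called falls or rises of each contrast, and fragments with a peak. Of these, the examples most useful to the comparisons are printed. Motifs were searched in mm9. Equal replicate numbers did not pair libraries: the highest correlation of their deviations was 0.155, no comparison had every pair over 0.1, and full-length numbers 3 and 4 occur more than once. Alternatives were other values (no expected value, other distance classes, median pair, raw counts, own iterative correction, members at least 60 kb apart), blocks by run or replicate number, other pseudocounts, filters and tools, and each library left out. Members, lists and tests were chosen with earlier results of these data known.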

Additional observations from a re-analysis of the deposited data

Results flagged for a closer look

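In 16 groups and measures of 4 to 10 libraries, the gap between the highest or lowest library and its nearest neighbour was set against the range of the group (Dixon's test), which chance alone exceeds in about 1 of 20 groups. It singled out 2 libraries, both replicate 1 of ΔN(1-265) lines from the third run of library numbers. In clone 2, replicate 1 had a segment log2 O/E of 0.554, while the other libraries of the clone lay between 0.4915 and 0.5006. In clone 1, contacts within the segment exceeded those across boundary 1 by 0.167 (log2) in replicate 1, against 0.0821 to 0.110 in the other 5. Both values stay outside the full-length range, and with either library left out both clones were still called lower than full-length by both measures.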

How the results depend on the processing

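Of the differences tested here, single pairs named included, none of the 48 called changed sign under any alternative, while 16 of the 35 not called did, without a call on the other side. Expected values from pairs outside the segment, 40-kb distance classes, members at least 60 kb apart and members measured in every library each left 14 of 20 transgene lines called. The cause of the changes below was not tested. Adjusted p-values are from permutation tests.

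Without an expected value, 5 of 20 lines and 4 of 5 comparisons between mutants were called: no dox −0.132 and low full-length expression −0.108 were lost, and ΔN(13-33) clone 1 −0.141, ΔN(1-265) against no dox −0.0735 and Y226A/F228A against ΔN(1-265) −0.0684 were gained. With the median member, 9 of 20 lines and 2 of 8 comparisons with other domains were called. Lost were no dox −0.0693, and −0.0668 and −0.0988 in the nearer distance classes, low expression −0.0591, and −0.0770 at 80 to 160 kb, no dox against domain 1-2 at −0.0492 and ΔN(1-265) against domain 2-3 at −0.0341, while ΔN(1-265) against no dox −0.129 was gained.

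From raw counts, where fewer libraries enter, 5 of 16 lines, 1 of 4 comparisons between mutants, 3 of 9 by distance and 0 of 6 with other domains were called (lowest adjusted p 0.0653). Lost were low expression −0.0886, Y226A/F228A −0.137, ΔN(1-265) against low expression −0.0387, at 40 to 80 kb ΔN(1-265) −0.0506 and Y226A/F228A −0.0526, at 80 to 160 kb low expression −0.125 and Y226A/F228A −0.167, against domain 1-2 ΔN(1-265) −0.0923 and Y226A/F228A −0.0399, and against domain 2-3 ΔN(1-265) −0.0797. Own iterative correction lost low expression at −0.0661 and ΔN(90-178) at −0.0702 (adjusted p = 0.0586 each).

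With runs of library numbers as blocks few libraries can be exchanged. Y226A/F228A has 2 libraries against 2 of full-length in its run, so it could not be called against full-length whatever its values. No dox and low expression have 2 against 5. Called were 1 of 20 lines, 1 of 5 between mutants, 3 of 12 by distance, 1 of 24 against contacts across boundary 1 and 2 of 8 with other domains. Lost for the segment were no dox −0.181, low expression −0.0987, ΔN(1-265) clone 2 −0.167, Y226A/F228A −0.156 and ΔN(1-265) against low expression −0.0791. By distance these were no dox −0.157 and −0.217, low expression −0.156, and Y226A/F228A −0.111, −0.168 and −0.244. Against contacts across they were no dox −0.388, ΔN(1-265) clone 2 −0.339, Y226A/F228A −0.252 and full-length against CTCF-AID parental −0.0884, and against domain 1-2 no dox −0.112 and Y226A/F228A −0.0900.

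Replicate numbers did not pair libraries. With the replicate block, 0 of 20 lines (permutation tests within shared numbers, none under 0.05 after adjustment) and 1 of 5 comparisons between mutants were called, with no dox at −0.123, low expression −0.0403, ΔN(1-265) clone 1 −0.169 and clone 2 −0.150, Y226A/F228A −0.170 and ΔN(1-265) against low expression −0.0791. In this block, 21 members were called in ΔN(1-265).

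Members called by themselves numbered 33 in ΔN(1-265), 11 in Y226A/F228A and 1 without dox. In the same order edgeR with TMM gave 3, 3 and 0, edgeR with library totals 6, 2 and 0, DESeq2 10, 21 and 0, and O/E of each pair 15, 10 and 0. In ΔN(1-265) the share of members called was above that of all pairs in each of these fits, from 0.352% against 0.181% with TMM to 1.76% against 0.461% with O/E of each pair. In Y226A/F228A both edgeR shares were near those of all pairs, at 0.352% against 0.252% with TMM and 0.234% against 0.194% with library totals. With O/E of each pair it was 1.17% against 0.565%, and with DESeq2 it was lower, 2.46% of members against 3.01% of all pairs. With run as a term they were 48, 2 and 0, and with no filter 16, 11 and 1. A pseudocount of 0.1 gave 18 in Y226A/F228A and 2 for the untagged endogenous deletion.

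With each library left out in turn, low full-length expression ranged from −0.0705 to −0.0618 and was not called in 10 of 16 cases. ΔN(90-178) ranged from −0.0833 to −0.0580 and was lost without its replicate 2 and without 2 of the full-length libraries, and ΔN(1-31) clone 1 from 0.0683 to 0.0837 and was lost without its replicate 2. From 160 kb up no dox ranged from −0.107 to −0.0866 and was called without either of its own libraries. Against contacts across, low expression ranged from −0.115 to −0.0970, called without full-length replicate 13, and full-length against CTCF-AID parental from −0.132 to −0.0942, lost without replicate 3 or 4 of the parental line. Sumoylation mutant 2 ranged from 0.0449 to 0.133 by this measure and was called without its replicate 2. Against domain 1-2, no dox ranged from −0.108 to −0.0588 and Y226A/F228A from −0.110 to −0.0745, each lost without its replicate 2, and against domain 2-3 from −0.0933 to −0.0802, called in 7 of 16 cases, and from −0.0969 to −0.0733, called in 5. Single members called ranged from 20 to 29 in ΔN(1-265), 0 to 1 without dox and 0 to 3 for the untagged endogenous deletion. Where 1 library is left in a line, its spread is taken from the other groups by limma.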
